A study of Mus musculus with 11 samples.

Results

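The genes described here encode the parts of the mitochondrial respiratory chain that lie downstream of complex I. They are succinate dehydrogenase (complex II), the cytochrome bc1 complex (complex III), cytochrome c, cytochrome c oxidase (complex IV) and ATP synthase (complex V). Genes were chosen by symbol: those that begin with Uqcr, Atp5 or Cox4 to Cox8, and Sdha, Sdhb, Sdhc, Sdhd, Cyc1 and Cycs. Of 49 such genes with a probe, 48 were well above background in at least 5 of the 22 channels and were kept, out of 26104 features tested, 16087 of which have a symbol. They are 4 genes of complex II, 9 of complex III, cytochrome c, 17 of complex IV and 17 of complex V. Cox8c, a cytochrome c oxidase isoform, was above background in 0 channels and has no value. Cox5a, Cycs and Cox4i1, the genes that mark the set, were above background in all 22 channels, as were 47 of the 48. Each gene is represented by its brightest probe, and probe levels are compared between mice and never between genes.

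Electrons from succinate enter at complex II and reach complex III through coenzyme Q. Complex III hands them to cytochrome c, and complex IV passes them to oxygen. Complexes III and IV pump protons across the inner mitochondrial membrane, and complex V uses the returning protons to make ATP. Neurons depend heavily on this chain, and several complex IV subunits exist as a common form and a form enriched in heart, skeletal muscle or testis.

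RNA came from the right hemisphere cortex of 22 mice aged 5 to 7 months on a C57/Bl6J background, hybridised in pairs to 11 Agilent 2-colour arrays. The 4 groups were intact wild type mice (WT, n = 6), intact transgenic mice (T, n = 5), wild type mice with a cryolesion (WTC, n = 5) and transgenic mice with a cryolesion (TC, n = 6). T and TC mice carried GFA2-tTa/TetO-VP16-CREB, in which an astrocyte promoter drives the tTA activator and tTA in turn switches on VP16-CREB, that is, CREB made permanently active by a viral activation domain. The promoter is meant to direct the transgene to astrocytes, and the cells in which it was active were not checked here. The RNA measured came from all cells of the tissue. For the cryolesion, dry ice was applied for 30 s, and the cortex was collected after 3 days. The comparisons asked what the lesion changed in each genotype and what the transgene changed without and with a lesion. Each mouse was on 1 array. Arrays A to F were on one slide and I to M on another, and all WT mice were on the first.

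The share of spots well above background was 56.6% to 65.3%, and precision is limited by having 11 arrays. For arrays I, J and K the source name of the Cy3 mouse contradicts the title; groups follow the titles. The TC mouse of array I had a first principal component (members left out) of -28.9, a score like those of the 11 intact mice (-43.3 to -23.7), whereas the other TC mice ranged from 0.1 to 85.6. Its 8 markers of excitatory cortical neurons had a mean log2 level of 8.07, against 10.12 to 11.07 in the other TC mice. The same mean was 9.63 in the WT mouse of array A, against 10.83 to 11.17 in the other WT mice. Values without these mice are given beside the results they move most. The mean level of 7 striatal markers was 9.22 to 12.73 in WT, 9.13 to 11.87 in T, 8.74 to 12.15 in WTC and 8.93 to 11.48 in TC mice. Choroid plexus markers ranged from 8.08 to 13 (mean of 6 genes). In WTC mice the mean level of 6 macrophage and neutrophil markers was 9.27 to 10.62, against 6.63 to 7.28 in WT.

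Promoters were read because the transgene is a form of CREB, which binds the cAMP response element. RefSeq (GRCm38.p6) gave the 250 bases before the start of 37 of the 48 genes. Exact matches on either strand were sought for the full element TGACGTCA, its core TGACG (contained in the full one), the NRF-1 core GCATGCGC, the GABP motif CCGGAAGT, the YY1 motif AAGATGGC and the ERR motif TCAAGGTCA. The full cAMP response element was found in 2 of 37 genes (5.41%), Cycs and Uqcrfs1, against 1.77% of 27025 genes and 2.2% of the protein-coding ones. The core was found in 11 (29.7%, against 19.8% of all genes and 22.6% of coding genes). The NRF-1 core, bound by a nuclear regulator of respiratory genes, was found in 6 (16.2%, against 2.56% and 3.32%): Cycs, Sdhb, Cox6a1, Atp5g2, Atp5k and Atp5l. GABP motifs were in 3 genes (8.11%, against 3.23%), the YY1 motif in 1 (2.7%, against 1.83%) and the ERR motif in 1, Atp5g3 (2.7%, against 0.422%). The 4 promoters below are those of both genes with the full element, of the marker gene Cox5a, which has none of the longer motifs, and of Sdhb, an NRF-1 example. They run 5′ to 3′ on the strand of the gene. Capitals mark TGACGTCA and GCATGCGC.
Cycs, chr6:50566570-50566819, minus strand: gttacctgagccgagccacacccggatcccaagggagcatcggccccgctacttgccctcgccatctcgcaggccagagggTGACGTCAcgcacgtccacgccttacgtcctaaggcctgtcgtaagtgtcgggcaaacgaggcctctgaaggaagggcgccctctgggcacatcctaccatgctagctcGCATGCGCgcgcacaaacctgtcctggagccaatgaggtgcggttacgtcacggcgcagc
Uqcrfs1, chr13:30545317-30545566, minus strand: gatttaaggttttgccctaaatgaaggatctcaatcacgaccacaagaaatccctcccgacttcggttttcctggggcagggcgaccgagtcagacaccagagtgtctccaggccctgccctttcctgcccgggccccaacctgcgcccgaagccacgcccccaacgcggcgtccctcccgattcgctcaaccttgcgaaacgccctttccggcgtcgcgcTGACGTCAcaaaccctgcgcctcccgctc
Cox5a, chr9:57520982-57521231, plus strand: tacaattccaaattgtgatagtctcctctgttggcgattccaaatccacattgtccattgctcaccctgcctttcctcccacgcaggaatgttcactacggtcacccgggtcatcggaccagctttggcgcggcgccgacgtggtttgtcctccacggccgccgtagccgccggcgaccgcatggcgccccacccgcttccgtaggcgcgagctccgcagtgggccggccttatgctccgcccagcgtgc
Sdhb, chr4:140961021-140961270, plus strand: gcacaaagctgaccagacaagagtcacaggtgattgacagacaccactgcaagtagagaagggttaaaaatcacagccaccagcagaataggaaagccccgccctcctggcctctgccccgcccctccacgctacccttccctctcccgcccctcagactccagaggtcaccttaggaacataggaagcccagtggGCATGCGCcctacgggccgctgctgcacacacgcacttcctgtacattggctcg
The full element begins 169 bases before the start in Cycs and 29 bases before it in Uqcrfs1. The NRF-1 core of Cycs begins 60 bases before the start.

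In the intact brain the transgene changed no gene of the set past the threshold. The T minus WT log2 ratio had a median of -0.05 over the 48 genes, with 12 above 0 and 36 below, and a median of 0 over all features. With median centring in place of loess both medians were 0.01, and Cox4i1 turned from below 0 to 0.01. The count of genes called (adjusted p under 0.05 in the limma fit of log2 ratios) was 0, against 0% of features, and 0 had an unadjusted p under 0.05; the separate-channel fit, which takes each mouse's channel as a value with the array as a block, also called 0 and had 0 at that p. Cox5a, a nuclear-encoded subunit of complex IV, gave 0.01 ± 0.09 (SE), Cox4i1, the common form of the largest nuclear-encoded subunit, -0.08 ± 0.08, and Cycs 0.11 ± 0.09. With a dye term for each slide, Cox5a gave -0.01. Uqcrfs1, the Rieske iron-sulfur protein of complex III and the other gene with a full cAMP response element, gave 0.15 ± 0.10. The 35 genes without that element in their promoter window had a median of -0.04. The intervals around single genes were wide against these values, and a difference of that size was not detectable with these arrays. All 7 striatal markers lay below 0 in this comparison (median -1.11, with 6 at an unadjusted p under 0.05), and their part in the values was not tested.

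**Figure D1:**
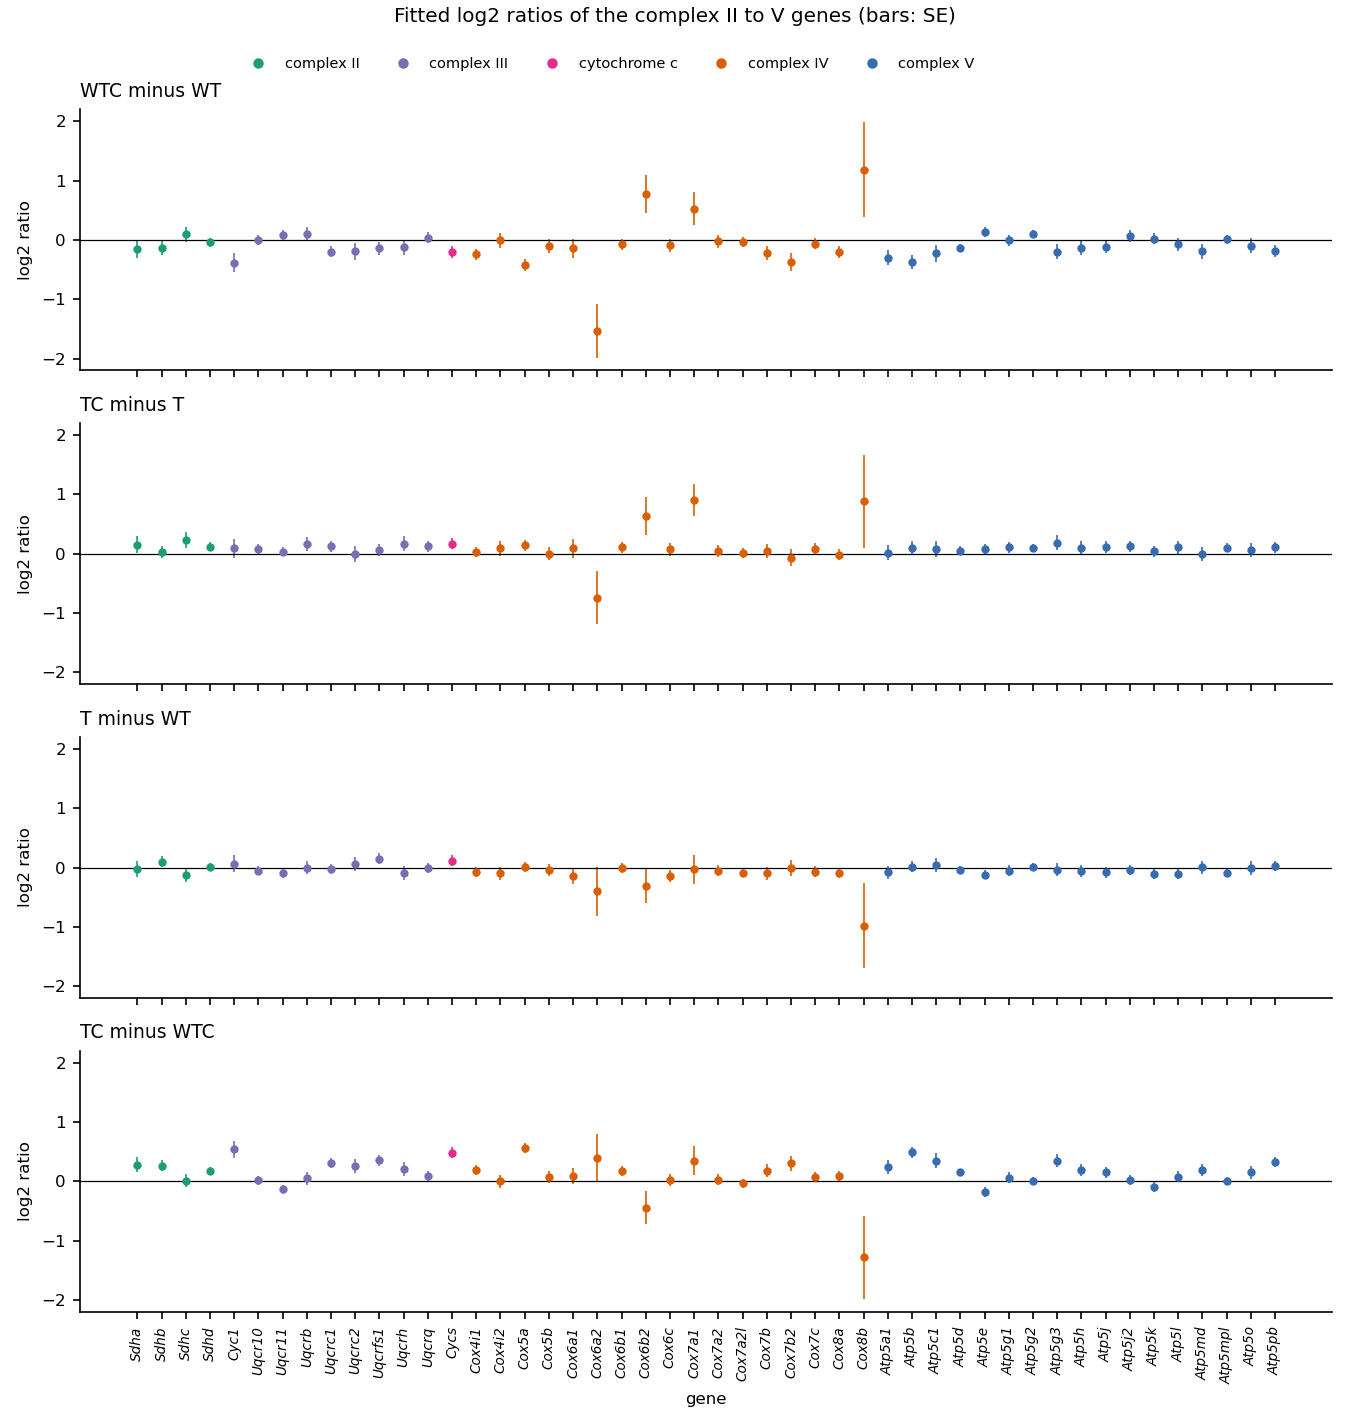
Log2 ratios (vertical axis, no unit) of the 48 genes, by complex, in 4 comparisons; points are fitted ratios and bars their SE. In WTC minus WT 35 of 48 points lie below 0, in TC minus WTC 41 lie above 0, and the largest differences belong to Cox6a2, Cox6b2, Cox7a1 and Cox8b.

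After the lesion, wild type cortex had lower values for most genes of the chain. The WTC minus WT log2 ratio had a median of -0.11 over the 48 genes, with 35 below 0 and 13 above, and of 0 over all features, of which 49.4% were below 0. With each array only centred on its median in place of loess, the medians were -0.33 for the genes and -0.1 for all features. The ratio fit called 0 of the 48 genes, against 0.023% of features (6, all higher). At an unadjusted p under 0.05, 7 genes were lower (14.6%, against 6.93% of features) and 1 was higher. The separate-channel fit called 11 lower (22.9%, against 12.1% of features) and 1 higher (2.08%, against 14.6%). With a slide term in that fit, 4 were lower, against 4.02% of features. In bulk tissue, fewer cells of a type and less RNA per cell cannot be told apart.

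Of the complex II genes, Sdha encodes the flavoprotein that oxidises succinate, Sdhb the iron-sulfur subunit, and Sdhc and Sdhd the membrane anchors. The WTC minus WT log2 ratios were -0.15 ± 0.15 for Sdha, -0.14 ± 0.11 for Sdhb, 0.09 ± 0.13 for Sdhc and -0.04 ± 0.08 for Sdhd, and neither fit called any of them. The log2 level of Sdhb was 14.84, 14.83, 14.72, 14.83 and 14.46 in the WTC mice of arrays A, B, K, L and M, and 14.86 to 15.06 (median 14.94) in WT. All WTC mice lay below all WT mice, by a narrow margin.

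In complex III, Cyc1, the cytochrome c1 subunit that passes electrons to cytochrome c, stood lowest. Its log2 level was 14.82, 14.34, 14.23, 14.41 and 13.53 in the 5 WTC mice (same order), and 14.82 to 15.19 (median 14.92) in WT. The groups met at 14.82, and 4 of 5 lesioned mice lay far below. The log2 ratio was -0.38 ± 0.16 (1.31-fold lower, adjusted p = 0.23, limma), and -0.61 ± 0.17 in the separate-channel fit (adjusted p = 0.015). Uqcrc1, a core subunit of the complex, gave -0.20 ± 0.09, and -0.35 ± 0.12 in the separate-channel fit (adjusted p = 0.038). The small accessory subunits Uqcr10, Uqcr11, Uqcrb and Uqcrq had ratios between 0.00 and 0.10.

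Cytochrome c itself, encoded by Cycs, also lay low in most lesioned wild type mice. Its log2 level was 14.47, 13.79, 13.61, 14.15 and 13.65 in the WTC mice, and 14.1 to 14.57 (median 14.43) in WT. The WTC mouse of array A stood among the WT mice, and 3 of the other four lay below all of them. The log2 ratio was -0.20 ± 0.10 (adjusted p = 0.31, limma) and -0.38 ± 0.14 in the separate-channel fit (adjusted p = 0.051). The 3 Cycs probes gave -0.2, -0.31 and -0.32.

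In complex IV, Cox5a and Cox4i1 were lower and 3 tissue isoforms departed furthest from 0. The log2 level of Cox5a was 15.67, 15.04, 14.83, 15.4 and 14.82 in WTC, and 15.58 to 16.12 (median 15.75) in WT. Only the WTC mouse of array A overlapped the WT range. The Cox5a log2 ratio of -0.42 ± 0.10 (1.34-fold lower) had the smallest p of the set and missed the threshold (adjusted p = 0.097, limma). The separate-channel fit gave -0.58 ± 0.14 (adjusted p = 0.0071). The level of Cox4i1 was 16.54, 16.51, 16.31, 16.47 and 16.11 in WTC, all below the 16.73 to 16.88 of WT. Its log2 ratio was -0.24 ± 0.09 (adjusted p = 0.18) and -0.38 ± 0.09 in the separate-channel fit (adjusted p = 0.0052). Cox8a, the common form of a small subunit, gave -0.21 ± 0.10 and was called lower in the separate-channel fit; without a dye term the ratio was 0.07. Cox6a1, Cox6b1, Cox7a2, Cox7a2l and Cox7b, further genes listed under complex IV, lay between -0.22 and -0.02 and were not called.

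In complex V, Atp5a1 and Atp5b encode the alpha and beta subunits of the catalytic head. The log2 level of Atp5b was 16.31, 15.99, 15.59, 15.89 and 15.42 in WTC, and 16.37 to 16.65 (median 16.52) in WT, so the groups did not overlap. The Atp5b ratio was -0.37 ± 0.11 (1.3-fold lower, adjusted p = 0.13, limma), and -0.59 ± 0.13 in the separate-channel fit (adjusted p = 0.0034). Atp5a1 gave -0.30 ± 0.13, and -0.46 ± 0.13 in the separate-channel fit (adjusted p = 0.018). Atp5c1, which encodes the rotating central stalk, Atp5g3, a subunit c gene, and the membrane subunit gene Atp5md were also called lower there. The other subunit c genes, Atp5g1 at -0.01 ± 0.10 and Atp5g2 at 0.09 ± 0.07, were not. Atp5e, a small stalk subunit, gave 0.13 ± 0.09, the highest ratio of the complex. Atpif1, the inhibitor of ATP synthase and no member of the set, had log2 levels of 15.97, 15.77, 15.61, 16.04 and 15.28 in WTC and 16.08 to 16.3 in WT. The WTC mice lay below all WT mice for it too; array J gave no value.

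Between WTC and WT, 9 of the 48 genes had all lesioned mice below all intact mice and 0 had them all above, while 1821 of 26104 features were lower and 2429 higher in this way. They were Sdhb, Cyc1, Uqcrc1, Cox4i1, Cox7b, Cox8a, Atp5b, Atp5h and Atp5j, with Cyc1 and Cox7b touching at 2 decimals. The authors' deposited table called 24 of 47 readable genes, 23 lower and 1 higher, against 36.8% of features in either direction. In that table, Cox5a had a log fold change of -0.83 and Cyc1 of -0.85. Without the TC mouse of array I, the separate-channel fit called 17 of the 48 lower (35.4%, against 15.7% of features) and 1 higher. Without it and the WT mouse of array A it called 10 lower (20.8%, against 13.2% of features) and 2 higher. In the ratio fit the genes' median was -0.05 without array A. Neuronal markers moved beside these genes in WTC minus WT: the median log2 ratio of 10 genes of neurons and synapses was -0.3, with 9 below 0. It was -0.23 for TC minus T, with 8 below 0, and 0.07 for TC minus WTC, with 6 above 0. The mean level of these markers was 14.55 to 15.04 in WTC and 15.14 to 15.32 in WT. Their part in the result was not tested.

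**Figure D2:**
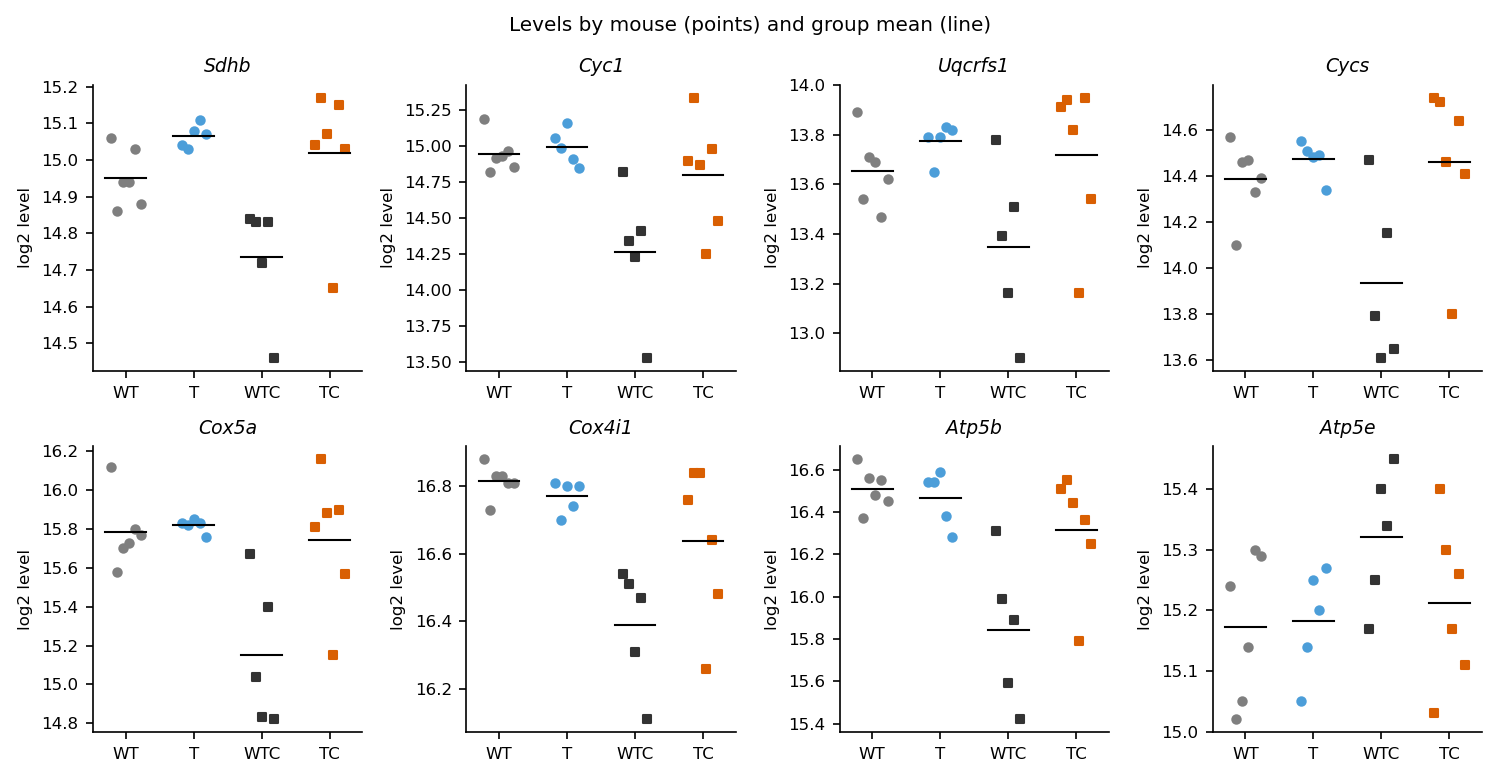
Log2 levels (vertical axis, after loess and Aquantile normalization, dye effect removed) of 8 genes in each of 22 mice by group; points are mice and lines group means. The WTC group mean is lowest for every gene shown except Atp5e, and the TC mouse of array K lies with the WTC mice. The WTC mouse of array A lies within the WT range for Cycs, Uqcrfs1 and Cox5a.

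In transgenic mice most ratios between lesioned and intact cortex were small. The TC minus T log2 ratio had a median of 0.09 in the ratio fit, with 44 of 48 genes above 0, and of 0 in the separate-channel fit, with 23 above 0. Without the TC mouse of array I the separate-channel median was -0.06, with 35 below 0, and with the Cy3 source names of arrays I, J and K the ratio fit gave 0.19. The ratio fit called 0, against 0% of features, and 1 gene, Cox7a1, was higher at an unadjusted p under 0.05 (2.08%, against 6.95% of features). Cox5a gave 0.14 ± 0.09, Cycs 0.17 ± 0.10 and Cox4i1 0.02 ± 0.09. The separate-channel fit gave -0.01 ± 0.14 for Cox5a, 0.03 ± 0.14 for Cycs and -0.09 ± 0.09 for Cox4i1. Without the TC mouse of array I, these were -0.11, -0.02 and -0.14.

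Mice of the TC group differed widely among themselves. The median over the 48 genes of the level minus the WT mean was -0.04, 0.22, 0.09, -0.46, 0.09 and -0.2 in the TC mice of arrays C, I, J, K, L and M. In T mice it lay between -0.03 and 0.03, and in WT mice between -0.13 and 0.15. The TC mice of arrays K and M lay below all intact mice, the other four did not. For Cox5a, the TC levels were 15.81, 16.16, 15.88, 15.15, 15.9 and 15.57 in the same order, against 15.76 to 15.85 in T. The TC mouse of array K was thus lower than all intact mice for Cox5a, and that of array I higher.

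The direct contrast of lesioned transgenic and lesioned wild type cortex showed higher values in TC for most of the genes. The TC minus WTC log2 ratio had a median of 0.15, with 41 of 48 above 0, while all features had a median of -0.02 and 44.4% above 0. With median centring in place of loess the genes' median was 0.42 and that of all features 0.08. Without arrays I, J and K it was 0.25. All 7 striatal markers lay below 0 in this comparison (median -1.91, each with an unadjusted p under 0.05), and their part in the values was not tested. The ratio fit called 0 genes, against 0% of features. At an unadjusted p under 0.05, 14 genes were higher (29.2%, against 6.11% of features) and 1 was lower. The separate-channel fit called 0 (against 0.161% of features). At an unadjusted p under 0.05 it had 19 of the 48 genes higher and 0 lower, against 4264 of 26104 features in either direction. Without the TC mouse of array I, 11 were higher and 1 lower at that p, against 3376 features. Without the WT mouse of array A as well, 12 were higher and 1 lower, against 3420 features. With a slide term the separate-channel fit called 1 gene, Atp5b, higher (against 0.375% of features). The authors' deposited table called 22 of the 48 genes higher and 0 lower, against 16.5% of features in either direction.

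By complex, the median TC minus WTC log2 ratio was 0.22 for complex II, 0.21 for complex III, 0.48 for cytochrome c, 0.09 for complex IV and 0.15 for complex V. Cox5a had the smallest p, with 0.57 ± 0.08 (1.48-fold, adjusted p = 0.13, limma); with a slide term in the separate-channel fit it gave 0.61 ± 0.14 (adjusted p = 0.05, just above the threshold). On the 3 arrays that paired a TC with a WTC mouse, K, L and M, its ratio was 0.32, 0.5 and 0.74. Cycs gave 0.48 ± 0.09 (1.4-fold, adjusted p = 0.13), with 0.19, 0.49 and 0.76 on these arrays. Both genes were higher in the TC mouse on all 3, although the TC and WTC ranges overlapped, since the TC mouse of array K had a Cycs level of 13.8, near the WTC mice of arrays B, K and M.

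Atp5b gave 0.49 ± 0.10 (1.4-fold, adjusted p = 0.13, limma), and 0.54 ± 0.10 with a slide term in the separate-channel fit (adjusted p = 0.035). On arrays K, L and M it was 0.2, 0.47 and 0.83. Cyc1 gave 0.54 ± 0.14 (1.46-fold, adjusted p = 0.18), with 0.02, 0.57 and 0.95 on the same arrays. For Cyc1 the mice of array K were thus alike. Uqcrfs1 gave 0.35 ± 0.09, Uqcrc1 0.31 ± 0.08, Atp5pb, part of the peripheral stalk, 0.33 ± 0.08, Atp5g3 0.35 ± 0.11, Atp5c1 0.35 ± 0.12 and Sdhb 0.27 ± 0.10. Cox4i1 gave 0.19 ± 0.08. Atp5e was the exception among genes at an unadjusted p under 0.05, at -0.18 ± 0.08, but median centring in place of loess gave 0.09. Sdha gave 0.28 ± 0.13, Sdhd 0.17 ± 0.07, Sdhc 0.01 ± 0.12 and Atp5a1 0.24 ± 0.11. The subunit c genes Atp5g1 and Atp5g2 gave 0.06 ± 0.09 and 0.01 ± 0.06, against the 0.35 of Atp5g3. Of the genes listed under complex IV, Cox6a1, Cox6b1, Cox7a2, Cox7a2l, Cox7b and Cox8a lay between -0.04 and 0.18.

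**Figure D3:**
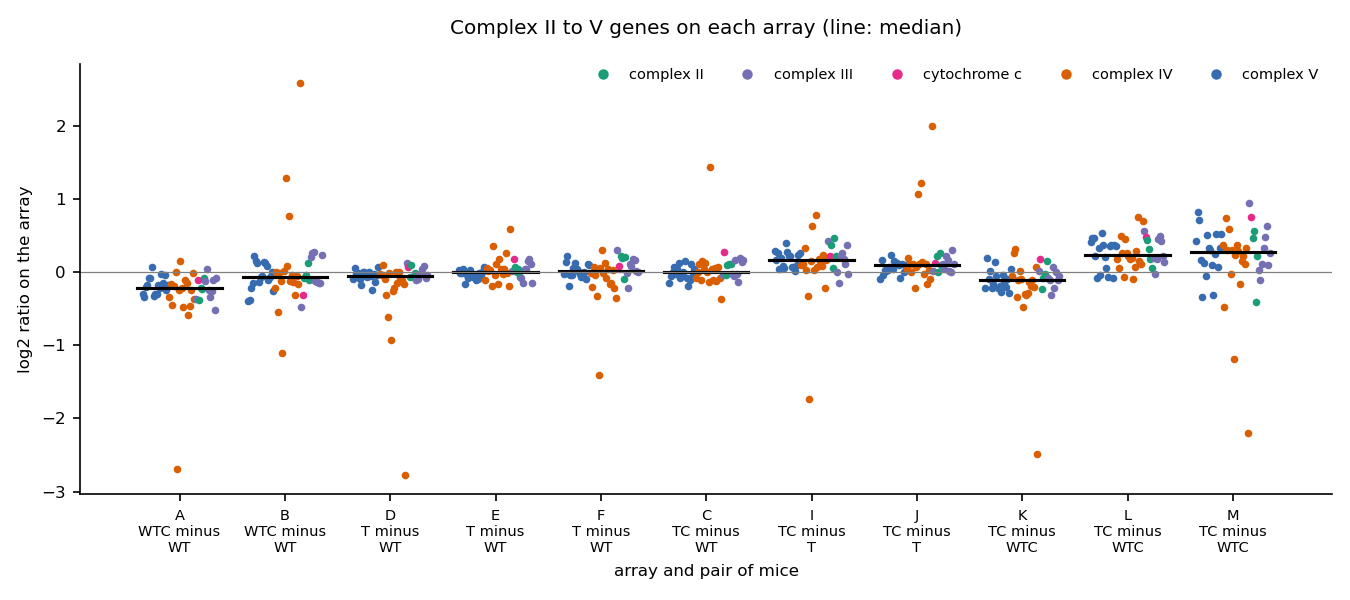
Log2 ratios (vertical axis, no unit) of the 48 genes on each of the 11 arrays, arranged by the pair of groups on the array; points are genes coloured by complex and lines are medians over genes. The medians are -0.22 and -0.06 for WTC minus WT, between -0.04 and 0.01 for T minus WT, and -0.11, 0.24 and 0.28 for TC minus WTC.

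The single arrays, which hold both mice on one slide, did not all point one way. On arrays L and M, 41 and 38 of 48 genes were higher in the TC mouse, with medians of 0.24 and 0.28. On array K, 35 were lower in the TC mouse, with a median of -0.11. Array K is also one of those with a contradicted label. Both arrays of WTC with WT had medians below 0, at -0.22 with 44 genes lower on array A and at -0.06 with 30 lower on array B. Without array K the genes' TC minus WTC median was 0.24, and without array L 0.12.

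The difference between the lesion effects in transgenic and wild type mice had a median of 0.18 over the genes, with 43 above 0, and of -0.02 over all features. It was 0.31 with the Cy3 source names of arrays I, J and K, and 0.12 in the separate-channel fit when both doubtful mice (TC of array I, WT of array A) were dropped. The ratio fit called 0, against 0% of features, and 8 genes were higher at an unadjusted p under 0.05 (16.7%, against 2.93% of features). Cox5a gave 0.56 ± 0.11, Atp5b 0.47 ± 0.13, Cyc1 0.48 ± 0.19, Cycs 0.37 ± 0.12, Uqcrc1 0.32 ± 0.11, Atp5g3 0.38 ± 0.15, Atp5pb 0.30 ± 0.11 and Cox4i1 0.27 ± 0.10, each with an adjusted p of 0.81 (limma). A difference between the genotypes in their response to the lesion was therefore not called for any single gene. This contrast shares its mice with those above.

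**Figure D4:**
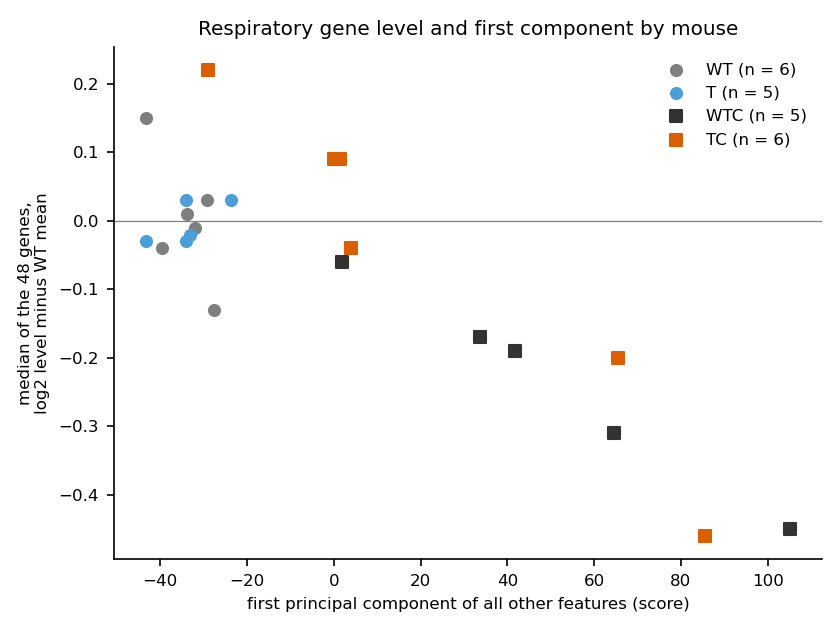
Median over the 48 genes of the log2 level minus the WT mean (vertical axis) against the first principal component of all other features (horizontal axis, score without unit), 1 point per mouse. The intact mice lie between -43.3 and -23.7 on the component and between -0.13 and 0.15 in level; lesioned mice of both genotypes spread along it, down to -0.46.

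Among the 11 lesioned mice the level of these genes tended to be lower at higher scores on the first principal component of all other features. The first principal component was computed without the 48 genes; the intact mice had scores from -43.3 to -23.7. The 4 lesioned mice with scores above 60 were the WTC mouse of array M (105.1), the TC mouse of array K (85.6), the TC mouse of array M (65.4) and the WTC mouse of array K (64.6). Their medians over the 48 genes were -0.45, -0.46, -0.2 and -0.31 relative to the WT mean, the 4 lowest of all 22 mice. The WTC mice of arrays L and B, at 41.7 and 33.6, had -0.19 and -0.17. The TC mouse of array C and the WTC mouse of array A, at 4 and 1.8, had -0.04 and -0.06. The TC mice of arrays J, L and I, at 1.4, 0.1 and -28.9, had 0.09, 0.09 and 0.22.

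The mean level of 6 macrophage and neutrophil markers, which are among the features behind the component, was 9.87 to 10.84 in the 4 mice with the highest scores. It was 10.62 and 9.27 in the WTC mice of arrays L and B, and 8.9, 9.65, 8.69 and 9.08 in the next 4 in order of score. The TC mouse of array I, with the lowest score of the lesioned mice, had 7.44. These markers did not follow the score mouse by mouse. The WTC mouse of array L had 10.62 at a score of 41.7, and that of array K 9.87 at 64.6. The scores of the WTC group ran from 1.8 to 105.1 and those of the TC group from -28.9 to 85.6. On array K, where the genes were lower in the TC mouse, the TC mouse had the higher score of the pair, and on arrays L and M, where they were higher, it had the lower one. The part of this score in the TC minus WTC values was not tested. The component and the levels share the arrays and their normalization.

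The tissue isoforms of complex IV did not move as a group. In WTC minus WT, Cox6a2 and Cox7b2 lay below 0, like most of the set, and Cox7a1, Cox6b2 and Cox8b above 0. Cox6a2, the heart and muscle form of subunit VIa, had log2 levels of 10.03, 10.69, 10.48, 11.18 and 11.63 in WTC, and 11.46 to 13.11 (median 12.2) in WT. Most lesioned mice lay below the WT range, and 1 overlapped it. Its WTC minus WT log2 ratio was -1.53 ± 0.46 (2.9-fold lower, adjusted p = 0.135, limma), and -1.47 ± 0.36 in the separate-channel fit (adjusted p = 0.0066), the largest fall of the set. In TC it ranged from 9.74 to 11.77 (median 11.55), and in T the levels were 11.63, 12.52, 11.7, 11.47 and 11.97. The TC minus T ratio was -0.74 ± 0.45 and TC minus WTC 0.39 ± 0.41, neither of them called. Without array I the former was -0.24, and with the Cy3 source names it was 0.04; without array C the latter was 0.17. Its common counterpart Cox6a1 gave -0.14 ± 0.16 for WTC minus WT. The lowest Cox6a2 level, 9.74, was that of the TC mouse of array I.

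Cox7a1, the heart and muscle form of subunit VIIa, went the other way. Its log2 level was 11.47, 11.47, 11.62, 10.73, 11.32 and 11.32 in TC (arrays C, I, J, K, L and M) and 10.52, 10.57, 10.82, 10.68 and 10.4 in T. All TC mice but that of array K lay above all T mice. The TC minus T log2 ratio was 0.91 ± 0.27 (1.88-fold, adjusted p = 0.3, limma), and 0.78 ± 0.18 in the separate-channel fit (adjusted p = 0.015), the only gene of the set called there (against 4.73% of features called higher). It was also the only one called in this comparison in the authors' deposited table (log fold change 0.87, adjusted p = 0.039), where 2.9% of features were. WTC mice had 10.55, 10.93, 11.05, 11.12 and 10.94, and WT mice 10.02 to 11.03 (median 10.54). The WTC minus WT ratio was 0.53 ± 0.27 and TC minus WTC 0.35 ± 0.24. Without array A these were 0.96 and 0.16, and without array K the TC minus WTC ratio was 0.58. Its common counterpart Cox7a2 gave -0.02 ± 0.10 for WTC minus WT, and Cox7a2l, a gene of similar name, -0.04 ± 0.09.

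Cox6b2, the testis form of subunit VIb, was higher after the lesion in wild type mice, with levels of 9.1, 10.03, 9.97, 9.5 and 10.28 in WTC and 8.71 to 9.68 (median 8.84) in WT. The log2 ratio was 0.77 ± 0.32 (1.71-fold, adjusted p = 0.23, limma), and 0.78 ± 0.23 in the separate-channel fit (adjusted p = 0.018), the only gene of the set called higher there. Without array B the ratio was 0.41. TC minus T was 0.63 ± 0.31 (0.41 without array J) and TC minus WTC -0.45 ± 0.28 (-0.18 without array M, -0.71 without array L). Choroid plexus markers were also high in several of these mice. Their mean level was 13, 11.88, 11.65 and 12.11 in the WTC mice of arrays B, K, L and M and 9.49 in that of array A. It was 13 in the WT mouse of array D, which had the highest WT level of Cox6b2. In the TC mice of arrays C, I, J, K, L and M it was 8.97, 8.08, 12.7, 9.03, 12.1 and 8.44. Cox6b2 was at 8.71, 9.53, 9.91, 9.5, 9.72 and 9.1 in the same order. In arrays I and K it was thus not low where the markers were. The part of these markers in the Cox6b2 values was not tested. For WTC minus WT, Cox7b2, a testis form, gave -0.37 ± 0.15, and Cox4i2, the hypoxia-responsive form of subunit IV, -0.01 ± 0.13. For TC minus WTC they gave 0.3 and 0. Of 7 skeletal muscle markers, Ckm was above background in 0 channels and Mylpf in 2. The mean level of the other 5 was 6.58 to 7.59 in all mice.

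Cox8b, the heart and muscle form of subunit VIII, varied more between mice than any other gene of the set, and not by group. Its log2 level was 10.35 in the WT mouse of array D and 7.75 to 8.8 in the other WT mice. In WTC it was 7.41, 10.44, 9.43, 8.88 and 9.29, and in TC 8.28, 8.21, 10.34, 6.93, 9.59 and 7.1. The groups overlapped fully, and no comparison called it, with 1.18 ± 0.80 for WTC minus WT, 0.88 ± 0.78 for TC minus T and -1.28 ± 0.70 for TC minus WTC. Single arrays moved these values: WTC minus WT was 0.2 without array B and 1.85 without array A, TC minus T 0.3 without array J, and TC minus WTC -2.07 without array L and -0.85 without array K. Ttr, the transthyretin gene of the choroid plexus, was at 18.15 in the WT mouse of array D, 18.51 in the WTC mouse of array B and 17.05 in the TC mouse of array J, the 3 mice with Cox8b above 10. It was at 11.27 in the TC mouse of array K, where Cox8b was lowest. The 6 choroid plexus and ependyma markers had a WTC minus WT median of 2.01 and a TC minus WTC median of -2.17, with all 6 above 0 in the first and all 6 below 0 in the second. Their part in the Cox8b values was not tested.

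**Figure D5:**
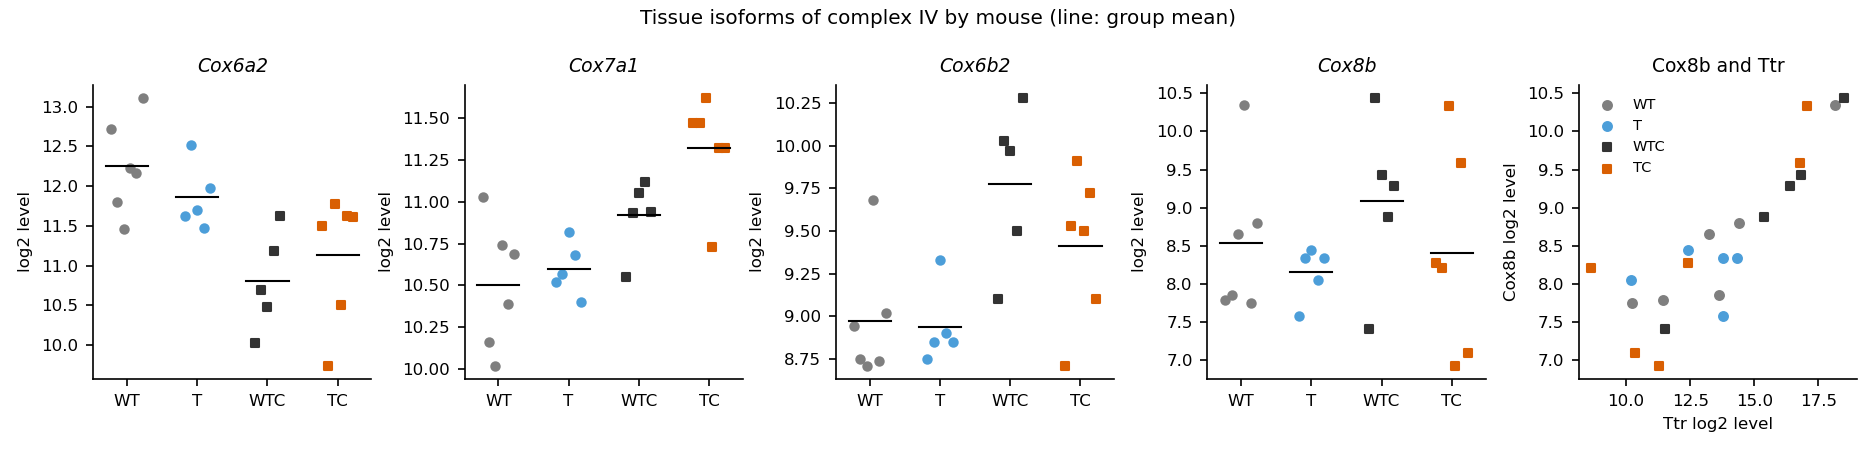
Log2 levels (vertical axis) of Cox6a2, Cox7a1, Cox6b2 and Cox8b by mouse and group, with lines for group means, and Cox8b against Ttr (both axes log2 level). Cox6a2 is lowest in lesioned mice and Cox7a1 highest in TC; the 3 mice with Cox8b above 10 have Ttr at 17.05 or more.

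Neighbouring parts of the pathway had similar medians. Complex I is where electrons from NADH enter. The 38 nuclear genes listed for it by symbol alone, Ndufa4 and Ndufa4l2 among them, had a median of -0.11 for WTC minus WT, with 27 below 0. Their median was 0.13 for TC minus WTC, with 30 above 0. At an unadjusted p under 0.05, 6 were lower and 1 higher in the first, and 9 were higher and 0 lower in the second. Of all features, 6.93% were lower in the first and 6.11% higher in the second at that p. Ndufab1, an acyl carrier protein, gave 0.68 ± 0.12 after the lesion in wild type mice, against the direction of its complex, while Ndufv1, which binds NADH, gave -0.3 ± 0.09. Ndufb6 had the smallest p in TC minus WTC, at 0.51 ± 0.1. The 42 measured assembly factors of complexes II to V, of 48 listed, had medians of -0.08 and 0.11. Surf1, an assembly factor of complex IV, gave -0.39 ± 0.12 for WTC minus WT and 0.37 ± 0.11 for TC minus WTC, and Ttc19, which acts on complex III, -0.51 ± 0.13 for WTC minus WT. At an unadjusted p under 0.05, 6 assembly factors were lower (against 6.93% of features) and 1 higher for WTC minus WT. For TC minus WTC, 10 were higher (against 6.11% of features) and 2 lower. For WTC minus WT the separate-channel fit called 11 complex I genes lower and 1 higher, and 10 assembly factors lower and 1 higher. It called 12.1% of all features lower and 14.6% higher. For TC minus WTC it called 0 in both lists, against 0.161% of features.

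Carriers that move ATP, phosphate and creatine phosphate had the highest median for TC minus WTC of these lists. The 8 measured genes, of 10 listed, had a median of -0.21 for WTC minus WT, with 7 below 0, and of 0.26 for TC minus WTC, with 8 above 0. At an unadjusted p under 0.05, 3 were lower in the first, against 6.93% of features. In the second 3 were higher, against 6.11% of features. Slc25a4, the adenine nucleotide carrier of heart and brain, gave -0.26 ± 0.1 and 0.43 ± 0.09, Slc25a5, another adenine nucleotide carrier, -0.23 ± 0.1 and 0.39 ± 0.09, and the phosphate carrier Slc25a3 gave 0.42 ± 0.12 for TC minus WTC. Ckmt1, a mitochondrial creatine kinase, gave -0.62 ± 0.21 and 0.38 ± 0.19. None passed the threshold in the ratio fit. The separate-channel fit called 3 of the 8 lower for WTC minus WT, against 12.1% of features. It called 1 higher for TC minus WTC, against 0.161% of features in either direction.

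Calls within the coenzyme Q list went both ways. The 21 genes of coenzyme Q reduction and synthesis had a median of -0.12 for WTC minus WT and 0.1 for TC minus WTC. In the first, 3 were higher and 3 lower at an unadjusted p under 0.05. At that p, 6.93% of features were lower, and 5115 of 26104 differed in either direction. Etfa and Etfb, the electron transfer flavoprotein of fatty acid oxidation, gave 0.53 ± 0.11 and 0.58 ± 0.13 for WTC minus WT, and Sqor, which oxidises sulfide, 0.79 ± 0.22, while Coq10a gave -0.31 ± 0.09. For WTC minus WT the separate-channel fit called 3 genes of the list higher, Etfa, Etfb and Sqor, against 14.6% of features. It called 7 lower, Coq10a among them, against 12.1% of features. Among 4 measured uncoupling proteins, which let protons return without making ATP, Ucp2 gave 1.32 ± 0.32 and Ucp3 1.12 ± 0.29 for WTC minus WT, while Slc25a27 gave -0.53 ± 0.15 and Slc25a14 -0.3 ± 0.14. All 4 were called in the separate-channel fit, 2 in each direction, against 14.6% of features called higher and 12.1% lower. The 13 subunits encoded by mitochondrial DNA were listed, and 0 were among the features analysed here.

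Genes with the full cAMP response element lay within the range of the other genes for TC minus WTC and TC minus T. In T minus WT, at 0.11 and 0.15, Cycs and Uqcrfs1 were the 2 highest of the 48, with Sdhb next at 0.10; neither was called, and the other Cycs probes gave 0.06 and -0.01. Cycs and Uqcrfs1 had TC minus WTC log2 ratios of 0.48 and 0.35, and the 35 genes without the element a median of 0.15; Cox5a, without the element, had 0.57. For TC minus T they had 0.17 and 0.06, against a median of 0.09. The 11 genes with the core TGACG had a TC minus WTC median of 0.19 and the other 26 one of 0.12. The 6 genes with the NRF-1 core had 0.08, against 0.17 in the other 31. A match describes letters only, and no difference between these sets was tested.

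Of the 48 genes, 17 had further probes that passed the filter. All probes of a gene shared 1 sign for 12 of the 17 in WTC minus WT and in TC minus WTC, for 14 in TC minus T and for 11 in T minus WT. The 3 Cycs probes gave 0.48, 0.37 and 0.25 for TC minus WTC. For TC minus T they gave 0.17, 0.01 and -0.06, so the sign of Cycs there rests on the probe chosen.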

How the data were processed

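The members and the gene lists were chosen with earlier results of these data known. Per the file headers, the authors deposited scanner output (Feature Extraction, version 10.7.3.1): linear intensity values (median spot and background), not normalized, and a log10 ratio used only as an alternative. Their deposited table of log fold changes (base not stated, read here as log2) and adjusted p-values was made with limma, per the submitters' processing notes (no version named). In it, 766 adjusted p-value cells for WTC minus WT hold numbers above 1 and were not read. Here, in limma 3.58.1 (R 4.3.3), background was corrected with normexp (offset 50) and ratios by loess. Outlier spots were left out and spots averaged. Symbols were matched by accession to RefSeq: 26762 of 55681 probes matched, and 35576 probes passed the filter of 5 channels above background. Ratios were fitted with coefficients for T, WTC and TC and a dye term (7 residual degrees of freedom), two-sided, with Benjamini-Hochberg adjustment over 26104 features. The separate-channel fit had an intraspot correlation of 0.293. Labels name each mouse once, so p-values measure the spread between mice. Genes given with values were Cox5a, Cycs and Cox4i1, up to 10 genes per direction with the smallest p under 0.05, the isoform sets, the Sdh genes and the catalytic subunits, and up to 4 genes of each other pathway list; Ttr was named after its values were seen. One gene is not reported here. The scripts were tested on simulated data.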

Additional observations from a re-analysis of the deposited data

Results flagged for a closer look

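Within a group, a gene is given here where 1 mouse's log2 level stood apart from the others by more than Dixon's critical value. Over 30 genes and the median of all 48 genes, each in 4 groups, 124 tests were made and 10 picked out a mouse, and chance alone picks about 1 in 20. In 4 of the 10 the mouse was the TC mouse of array K, which was low each time. It had 13.8 for Cycs where the rest of the group had 14.41 to 14.74, and 14.65 for Sdhb against 15.03 to 15.17. Cox7a2 stood at 13.59 in it against 14.06 to 14.32, and Cox7a1 at 10.73 against 11.32 to 11.62.

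Among T mice, Atp5a1 was low on array F (15.27 against 15.37 to 15.4) and Uqcrfs1 on array E (13.65 against 13.79 to 13.83). Cox6b2 was high in the T mouse of array F (9.33 against 8.75 to 8.9), and Cox7b2 in that of array I (7.47 against 6.88 to 7). Among WT mice, Cox6b2 was high on array D (9.68 against 8.71 to 9.02) and Cox4i2 on array A (8.8 against 8.38 to 8.53).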

How the results depend on the processing

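The median over the 48 genes kept its sign in every leave-one-array-out fit, at -0.16 to -0.05 for WTC minus WT, 0.06 to 0.11 for TC minus T, -0.07 to -0.01 for T minus WT, 0.12 to 0.24 for TC minus WTC and 0.14 to 0.25 for the difference in lesion effect. Median centring in place of loess gave -0.33, 0.42 and 0.39 for WTC minus WT, TC minus WTC and that difference. What varied most was the number of genes called, 0 in the ratio fit. The separate-channel fit called 12 for WTC minus WT and 1 for TC minus T, and 4, 1 and, for TC minus WTC, 1 with a slide term. Without the TC mouse of array I it called 18 and 1, and without the WT mouse of array A as well 12 and 1. Array weights gave 8, 1 and 6, and leaving out arrays I, J and K gave 1 for WTC minus WT. Leaving out 1 array gave 0 to 3 for WTC minus WT (3 without array K, 1 without array I). The number of features called, WTC minus WT, was 6 in the ratio fit, 0 to 1576 leaving out 1 array, 6970 in the separate-channel fit, 3438 with its slide term, 4908 with array weights, 1748 without arrays I, J and K, 50 with only probes above background in all 22 channels, and 0 or 1 with the scanner ratio, median centring, no filter, the mean of probes, the slide as a random block or the Cy3 source names. The number of features called, TC minus T, was 0, against 1881, 856 and 1719 (separate-channel, slide term, array weights), and that of features called, TC minus WTC, was 0, against 42, 119 and 559, and 3 with the Cy3 source names. Without the TC mouse of array I, the separate-channel fit called 8409, 3256 and 48 features, and without the WT mouse of array A as well 7279, 3555 and 50.

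Some single genes changed sign, none of them called in the ratio fit; the cause was not tested. Cox6a2 gave 0.04 for TC minus T with the Cy3 source names. For TC minus T, Cox4i1 gave -0.03 with the scanner software's ratio and -0.09 in the separate-channel fit (-0.05 with a slide term, -0.14 and -0.13 without 1 or both doubtful mice); Cox5a gave -0.01, -0.11 and -0.1, and Cycs -0.02 without either or both. For T minus WT, Cox4i1 gave 0.01 (median centring) and Cox5a -0.01 (dye term by slide). For WTC minus WT, median centring gave -0.12 for Atp5g2 and -0.14 for Sdhc. Without a dye term Cox6a1 gave 0.14, Cox7a2 0, Cox8a 0.07 and Atp5g1 0.04. Atp5g1 gave 0.03 with array weights and 0.02 with the Cy3 source names. Cox4i2 gave 0 with array weights and with a dye term by slide, and 0.02 without both doubtful mice. For TC minus WTC, median centring gave 0.09 for Atp5e, 0.13 for Cox4i2 and 0.24 for Cox7a2l. Cox7a2l gave 0.03 with the mean of all probes and in the separate-channel fit, with and without a slide term. Cox4i2 gave 0 without a dye term, 0.03 with one by slide and 0.06 with array weights. Atp5g2 gave -0.03 (mean of probes; without arrays I, J and K), -0.01 (no dye term; Cy3 source names) and -0.02 (array weights). Sdhc gave 0 (slide as a random block; slide term), -0.04 (Cy3 source names), -0.05 (without arrays I, J and K), and -0.03 and -0.04 without 1 or both doubtful mice. Leaving out 1 array, the ranges that crossed 0 were -0.07 to 0.06 for Cox4i2, -0.07 to 0.04 for Cox7a2, -0.08 to 0.01 for Cox7a2l and -0.13 to 0.06 for Atp5g1 (WTC minus WT), -0.01 to 0.05 for Cox4i1 (TC minus T), and -0.02 to 0.04 for Cox5a (T minus WT). For TC minus WTC they were -0.09 to 0.17 for Cox4i2, -0.1 to 0.15 for Cox6a1, -0.07 to 0.13 for Cox7a2, -0.08 to 0.01 for Cox7a2l, -0.04 to 0.14 for Atp5g1, -0.04 to 0.03 for Atp5g2 and -0.05 to 0.17 for Sdhc. No paired analysis was possible because the labels give no replicate number shared between groups; the pairing of mice on arrays is part of both fits.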
